A study of Mus musculus with 9 samples.

Results

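Detoxification enzyme genes were followed in the mouse line m-ICcl2, epithelial cells of small intestine that express SV40 large T antigen from a transgene, across an exposure to lipopolysaccharide (LPS) and a later recovery. Members were all genes whose symbol places them in 9 families: cytochrome P450 genes (Cyp and a number, without Cyp51), UDP-glucuronosyltransferases (Ugt1 and Ugt2), sulfotransferases (Sult), cytosolic glutathione S-transferases (Gsta, Gstm, Gstp, Gstt and Gsto), microsomal glutathione S-transferases (Mgst), aldehyde dehydrogenases (Aldh), alcohol dehydrogenases (Adh), carbonyl reductases (Cbr) and aldo-keto reductases of family 1 (Akr1). The array held 160 such genes with a probe set of their own, out of 18193 genes in all. Of these, 55 reached a log2 level of 4 on at least 3 of 9 arrays and were tested, among 9431 tested genes, and the other 105 were not.

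The cells are a single line from fetal small intestine of the C57BL/6 strain. All arrays share this line and its transgene, so that no group lacks large T antigen. One group was left unstimulated, another received LPS from E. coli at 100 ng/mL for 6 h, and the last received the same 6 h of LPS and then 90 h of medium without it. That group is called tolerant, as in the series design. Each group had 3 arrays, labelled as biological replicates 1, 2 and 3, and p-values measure the spread between these arrays. Unstimulated arrays carry no culture time, so earlier LPS and time in culture cannot be told apart in the tolerant group.

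Detoxification is usually described in steps. Cytochrome P450 enzymes, with alcohol and aldehyde dehydrogenases, carbonyl reductases and aldo-keto reductases, oxidise or reduce a foreign compound or a reactive aldehyde. Transferases then attach glucuronic acid, sulfate or glutathione, and transporters export the product. The small intestinal epithelium meets food-borne compounds first and is a known site of such metabolism. Several members of these families also serve ordinary metabolism, such as amino acid breakdown, retinoid synthesis and steroid conversion.

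Upstream sequences are shown for 5 genes described below. Cbr2, Gsta3 and Mgst1 were lower in tolerant cells, and Gstm5 and Sult2b1 were higher in tolerant cells than at 6 h. Sult2b1 reached the level needed for testing only with its tolerant arrays, which fixed its direction. Without that level requirement it did not pass against unstimulated cells (adjusted p = 0.0807 by limma) and passed against 6 h (adjusted p = 0.0493 by limma). Gsta3 then did not pass against 6 h (adjusted p = 0.0638 by limma). Each sequence is the 250 bases before an annotated transcription start, 5′ to 3′ on the gene's strand, from RefSeq on GRCm38.p6. Capitals mark the letters GCGTG, the core bound by the aryl hydrocarbon receptor, and TGACNNNGC, the antioxidant response element core bound by NRF2, on either strand.
Cbr2 (chr11:120732022-120732271, - strand): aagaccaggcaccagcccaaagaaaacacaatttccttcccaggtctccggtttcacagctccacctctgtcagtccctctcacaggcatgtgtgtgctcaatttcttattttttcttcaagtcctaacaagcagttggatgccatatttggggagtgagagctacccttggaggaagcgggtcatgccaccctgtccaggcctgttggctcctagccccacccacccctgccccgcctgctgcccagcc
Gsta3 (chr1:21240335-21240584, + strand): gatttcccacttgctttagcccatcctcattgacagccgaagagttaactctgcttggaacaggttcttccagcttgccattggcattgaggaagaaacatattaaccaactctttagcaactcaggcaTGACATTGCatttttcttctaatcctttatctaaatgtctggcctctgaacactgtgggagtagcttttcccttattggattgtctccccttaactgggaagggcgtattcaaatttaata
Mgst1 (chr6:138140277-138140526, + strand): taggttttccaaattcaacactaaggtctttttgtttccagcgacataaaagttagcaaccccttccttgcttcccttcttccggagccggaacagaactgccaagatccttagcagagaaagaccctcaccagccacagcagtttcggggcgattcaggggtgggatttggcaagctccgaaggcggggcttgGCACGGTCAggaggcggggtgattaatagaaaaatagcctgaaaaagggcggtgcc
Gstm5 (chr3:107895604-107895853, + strand): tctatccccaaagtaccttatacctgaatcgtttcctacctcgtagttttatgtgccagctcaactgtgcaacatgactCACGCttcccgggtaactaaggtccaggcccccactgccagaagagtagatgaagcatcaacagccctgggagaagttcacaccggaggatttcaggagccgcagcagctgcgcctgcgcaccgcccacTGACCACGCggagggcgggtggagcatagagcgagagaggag
Sult2b1 (chr7:45742479-45742728, - strand): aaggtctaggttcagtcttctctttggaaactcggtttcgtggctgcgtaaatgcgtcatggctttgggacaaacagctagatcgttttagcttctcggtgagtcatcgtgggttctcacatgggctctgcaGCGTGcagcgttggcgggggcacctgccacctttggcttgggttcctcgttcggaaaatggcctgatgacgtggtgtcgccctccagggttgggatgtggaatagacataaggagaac
The antioxidant core lay 121 bases before the start in Gsta3, 56 in Mgst1 (on the opposite strand) and 42 in Gstm5, where it overlaps an opposite-strand GCGTG match. Gstm5 held a further GCGTG match 171 bases before the start, and Sult2b1 held one at 118. Cbr2 held neither motif in this window, and Mgst1 and Sult2b1 each have another listed start whose window held neither. Of the 55 tested genes, 46 had an entry, and 10.9% of these had the antioxidant core in at least 1 window against 11.5% of the 27025 genes listed. For GCGTG the shares were 37% and 30.9%. These matches are letters in a window and no sign of binding.

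The deposited values are GCRMA intensities, used here as log2, and the array medians over tested genes were 7.62 to 7.84. Of the members tested, 47 lay at log2 4 or more on all 9 arrays. The genes Cyp3a13 and Sult1a1 were under log2 4 in all unstimulated and all 6 h samples, and Sult2b1 in all but 1 of them. These 3 reached the level minimum only with their tolerant arrays, so they had to be higher there, and unless stated otherwise their p-values below come from a fit of all 18193 genes without that minimum. Replicate 1 stood apart from replicates 2 and 3 in every group. Correlations of deviations from the group means were -0.743 to -0.375 between arrays of replicate 1 and those of other numbers in other groups. For that reason the member counts of each comparison are also given from a fit with replicate number as a blocking term (the replicate block). Among epithelial markers, Krt8, Krt18 and Elf3 lay above the minimum on all arrays and Epcam on the tolerant arrays alone, whereas Cdh1, Krt19 and Cldn7 lay below it on every array. Of 7 brush border genes with a probe set, Vil1, Fabp1 and Cdh17 were above the minimum, and Alpi, Lct, Fabp2 and Apoa4 below it on every array. All 7 fibroblast and all 4 endothelial markers stayed below it, as did 6 of 8 leukocyte markers (Cd68 and Csf1r excepted). In bulk RNA, fewer cells of a kind and less RNA per cell cannot be told apart.

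The first comparison set 6 h of LPS against no stimulation. No member passed the test, against 0.0636% of all genes tested. The smallest adjusted p of a member was 0.115 (limma's moderated test with Benjamini-Hochberg adjustment), and 10 members (18.2%) had an unadjusted p below 0.05, against 22.9% of all genes. Most members were nonetheless a little lower on average: 44 of 55 differences were below 0, with a median of -0.33 log2 against -0.11 over all tested genes. In 12 members all 3 LPS arrays lay below all 3 unstimulated arrays (21.8%, against 13.2% of all genes), and in 1 they lay above (1.82%, against 12.9%).

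With the replicate block, 11 members were lower and 2 higher at 6 h, 20% and 3.64% of those tested against 12.5% and 11.6% of all genes. The lower ones came mainly from 2 families. Among cytosolic glutathione S-transferases, which join glutathione to electrophiles, Gstm3, Gsta2, Gsto1, Gstm5, Gstt2 and Gsta4 passed, 6 of 10 tested. Among P450 genes Cyp2d26, Cyp4b1 and Cyp4a12a passed, 3 of 10 tested. Mgst3 and Aldh9a1 completed the lower set, and Adh7, a retinol-oxidising alcohol dehydrogenase, and Cbr4 were higher. A second Aldh9a1 probe set, above the level minimum on all 9 arrays, differed by -0.21 log2.

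Cyp2d26, a member of the CYP2D subfamily, had the widest difference of these. It read log2 5.38, 5.44 and 5.48 in unstimulated cells and 4.93, 3.72 and 4.07 at 6 h, lower on every LPS array, a difference of -1.19 ± 0.28 (SE, n = 3 per group; adjusted p = 0.115, and 0.0319 with the block). One of the 3 LPS arrays lay below log2 4. Without 6 h LPS replicate 1 it was the single member that passed without a block, at -1.53 log2 (adjusted p = 0.0303).

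Within same-numbered arrays the 6 h differences were uneven. Gstm3 differed by -1.61 in replicate 1 and by -0.38 and -0.78 in replicates 2 and 3 (log2), with 1 LPS array below log2 4. Gsto1, the omega-class transferase, differed by -1.16 in replicate 1 and by -0.40 and -0.35 in the others. Gstt2, of the theta class, differed by -0.37, -0.57 and -0.40. In 10 of the 13 genes the pair of replicate 1 lay farthest from 0, and Cyp2d26, Gstt2 and Adh7 were the exceptions. From replicates 2 and 3 alone no member passed, against 0.0848% of all genes.

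**Figure D1:**
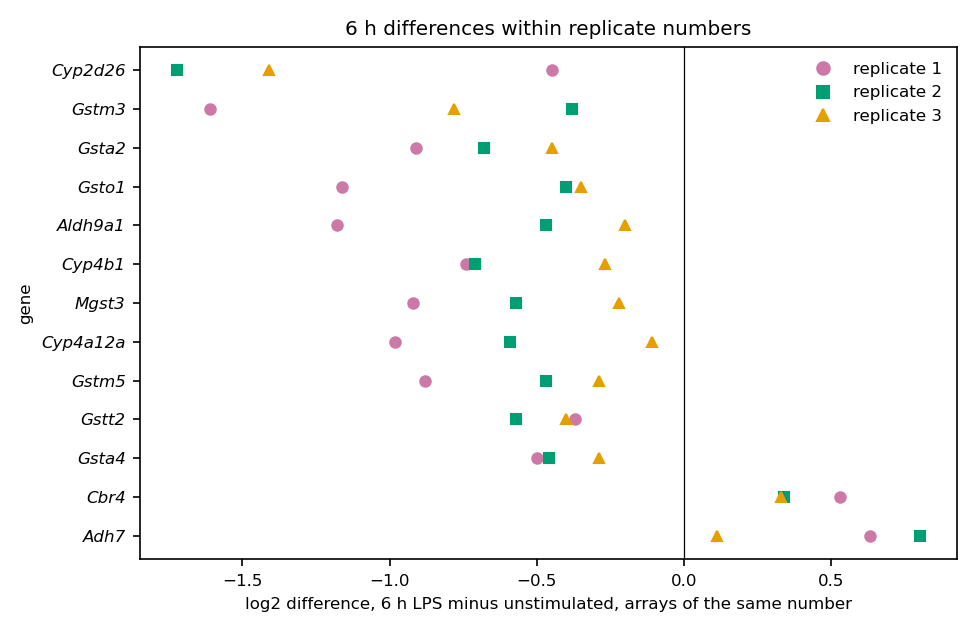
Log2 difference of 6 h LPS minus unstimulated within each replicate number (horizontal axis) for the 13 members that passed with the replicate block; symbols mark the replicate number. All 3 points lie below 0 for 11 genes and above 0 for Adh7 and Cbr4, and replicate 1 lies farthest from 0 in 10 of the 13.

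Sult1d1, a sulfotransferase acting on catecholamines, had the largest higher mean at 6 h without passing. Its levels were 12.57, 12.62 and 13.18 in unstimulated cells and 13.65, 13.72 and 13.06 at 6 h (log2), so that replicate 3 was not higher. The difference was 0.69 ± 0.24 (SE; adjusted p = 0.15, and 0.0624 with the block), and its other probe set gave 0.66.

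Tolerant cells were then compared with unstimulated ones, and here 19 of 55 members passed (34.5%, against 26.2% of all genes). Lower were 16 of them, 29.1% of those tested against 12.2% of all genes, and higher were 3, 5.45% against 14%. Of the 16, 11 were lower by at least 2-fold as measured (20%, against 6.11% of all genes), among them Cyp2c23, for which only a smaller lower bound can be given. The 3 higher genes differed by as much in their measured means (5.45%, against 8.67%), but for Cyp3a13 and Sult1a1 only smaller lower bounds can be given. The median difference was -0.37 log2 against -0.07 over all genes. In 23 members the tolerant arrays all lay below the unstimulated arrays (41.8%, against 24.5%), and in 6 all above (10.9%, against 22.6%). The 3 higher genes are Cyp3a13, Sult1a1 and Sult2b1, which all met the level minimum only with their tolerant arrays, so nothing is read from that count.

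With the replicate block the count was 31 members (56.4%, against 48.6% of all genes), 24 lower (43.6%, against 25.9% of all genes) and 7 higher (12.7%, against 22.7%), and all 19 were among them. The count without the block fell to 11 without unstimulated replicate 2 and to 11 without tolerant replicate 3. Shares of all genes are not given for these smaller fits, so nothing particular to members is read from the falls.

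**Figure D2:**
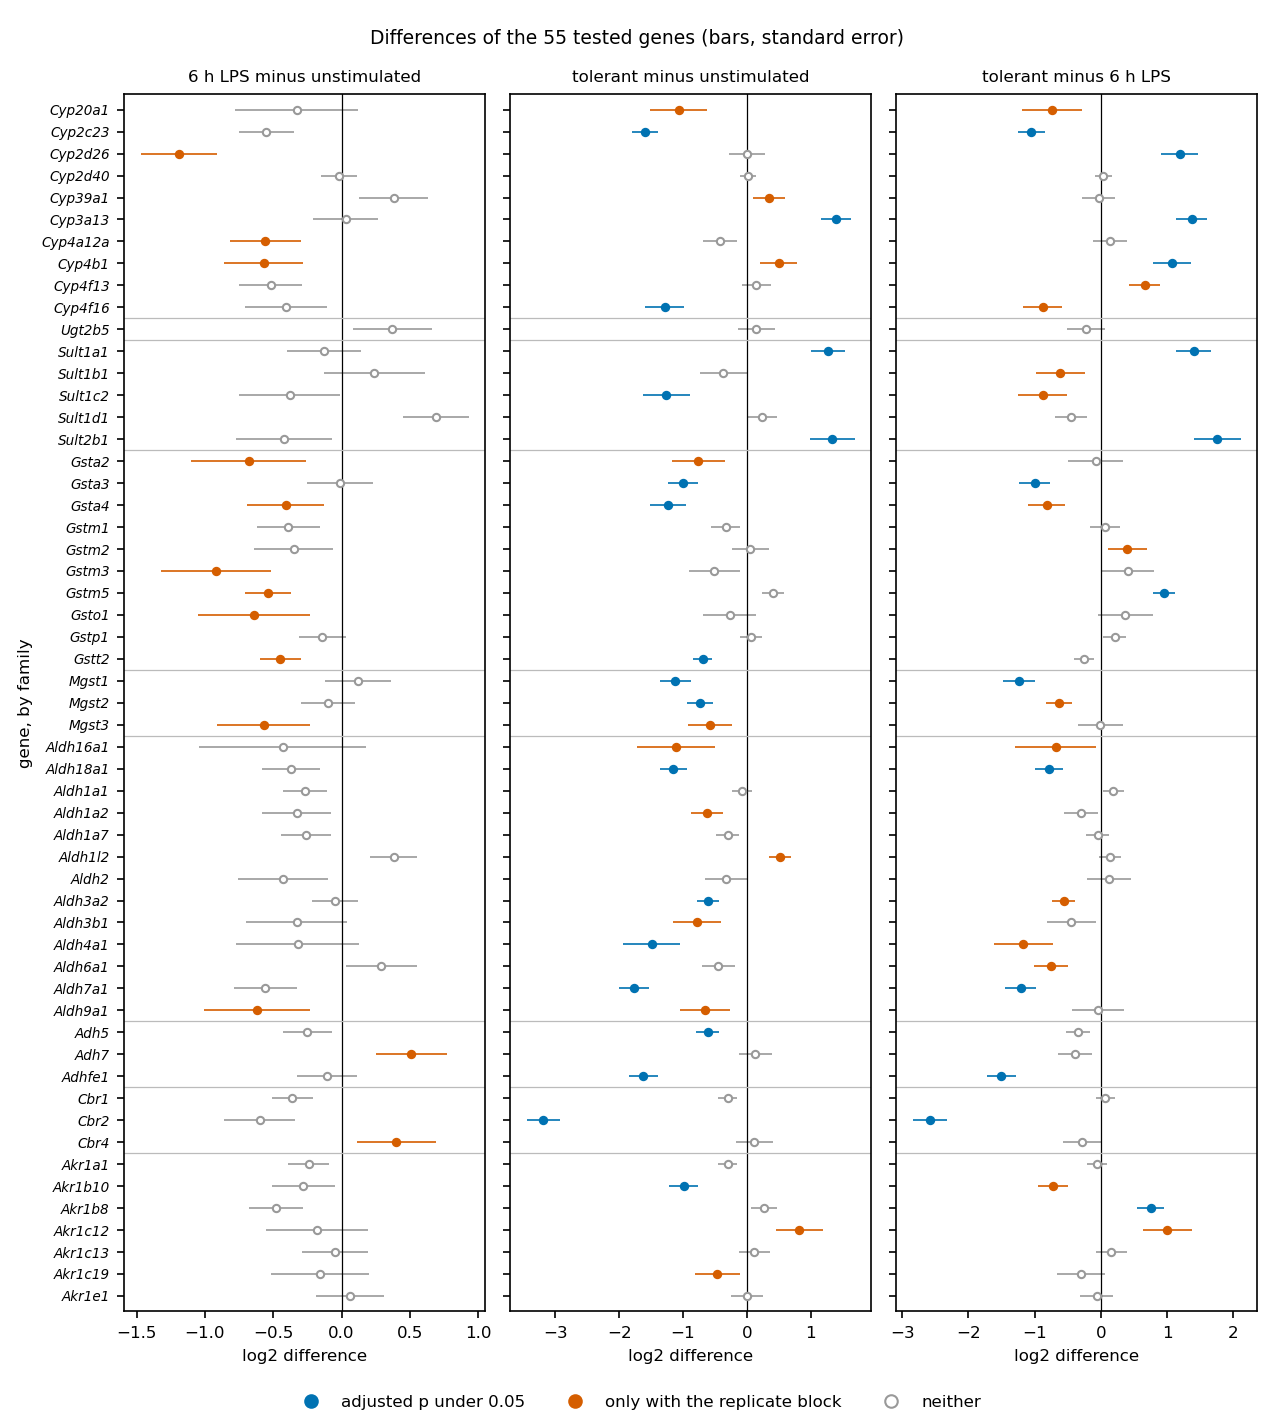
Log2 difference (horizontal axis) of each of the 55 tested genes in the 3 comparisons, with standard error bars, grouped by family between grey lines. Blue points passed without the block, orange points only with it, and open points in neither fit; at 6 h no point is blue, and in tolerant against unstimulated cells 16 blue points lie below 0 and 3 above.

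The carbonyl reductase Cbr2 had the widest difference of any member. It read log2 6.92, 6.97 and 6.93 in unstimulated cells, 6.21, 6.10 and 6.69 at 6 h and 3.22, 4.14 and 3.90 in tolerant cells. Unstimulated arrays lay within a narrow band, and all tolerant arrays lay far below them, 2 of 3 under the level minimum. The difference was -3.19 ± 0.26 (SE, n = 3 per group; adjusted p = 1.31e-04), or -2.89 with values below log2 4 set to 4. Its family members did not follow: Cbr1, a broad carbonyl reductase, differed by -0.30 (adjusted p = 0.176) and Cbr4 by 0.12 log2.

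Aldehyde dehydrogenases, the largest family tested, gave 4 lower calls of 13 tested, and 8 lower and 1 higher with the block. Over all 55 members 29.1% were lower, and 43.6% with the block, so the 4 calls lie near the share of all members. Of all genes tested 12.2% were lower and 14% higher, or 25.9% and 22.7% with the block. These shares stand beside each family count of this comparison below. Aldh7a1, which acts in lysine breakdown and on lipid aldehydes, read log2 7.10, 6.33 and 6.20 unstimulated, 6.04, 5.90 and 6.01 at 6 h and 4.93, 4.69 and 4.71 in tolerant cells. It fell 3.41-fold to the tolerant state with no overlap between groups (adjusted p = 0.00122). The other Aldh7a1 probe sets lay below the minimum on every array. Aldh18a1, a proline synthesis enzyme, read 10.48, 9.85 and 10.29 unstimulated and 9.21, 8.90 and 9.06 in tolerant cells, 2.22-fold lower (adjusted p = 0.00464), with -1.16 to -0.43 log2 over its 5 probe sets. On the Aldh18a1 probe set of largest variance the difference was -0.97 and did not pass (adjusted p = 0.272). Aldh4a1, of proline breakdown, fell 2.8-fold (adjusted p = 0.0377). Its call was lost without any single array of the 2 groups but tolerant replicate 1 (adjusted p = 0.0532 to 0.133). Aldh3a2, the fatty aldehyde dehydrogenase, fell 1.53-fold (adjusted p = 0.0298), a call lost without any array of the 2 groups but unstimulated replicate 3 (adjusted p = 0.0659 to 0.103). Aldh3a2 was singled out after its values were seen. The other 3 called genes of the family are known for amino acid metabolism.

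In 2 further genes of this family the replicate block decided the call. Aldh16a1, a catalytically unusual member, differed by -1.11 log2 (adjusted p = 0.215, and 0.00106 with the block), and Aldh3b1, which oxidises lipid-derived aldehydes, by -0.78 (adjusted p = 0.153, and 0.00449 with the block). Aldh16a1 was the single tested member in which replicate 1 lay at least 2-fold from the mean of replicates 2 and 3 in every group, higher by 1.36, 1.62 and 1.58 log2 (1.82% of members, against 4.07% of all genes). Its tolerant array of replicate 1, at log2 6.47, lay above the unstimulated arrays of replicates 2 and 3, at 6.15 and 6.00.

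Alcohol dehydrogenases gave 2 lower calls among 3 tested (12.2% of all genes were lower), too few genes to read a fall of the family. Adhfe1, an iron-containing hydroxyacid transhydrogenase that shares the name but not the classical fold of the family, read log2 6.88, 6.69 and 6.73 unstimulated, 6.42, 6.63 and 6.92 at 6 h and 4.82, 5.09 and 5.54 in tolerant cells. It fell 3.06-fold with separate groups (adjusted p = 0.00128), but another probe set differed by -0.28 log2 alone, and the last lay below the minimum on every array. Adh5, the glutathione-dependent formaldehyde dehydrogenase, fell 1.53-fold (adjusted p = 0.034), a call lost without any one of the 6 arrays (adjusted p = 0.0521 to 0.11) and with its probe sets averaged (adjusted p = 0.0849).

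P450 genes gave 2 lower calls and 1 higher call of 10 tested, or 3 and 3 with the block, and the other 62 of the 72 on the array lay below the level minimum. Cyp2c23, an arachidonic acid epoxygenase, read log2 4.94, 4.45 and 4.94 unstimulated, 4.01, 4.23 and 4.44 at 6 h and 3.30, 3.30 and 2.93 in tolerant cells. All tolerant arrays lay below the level minimum, so the difference of -1.60 log2 stands for a fall of at least 1.71-fold (adjusted p = 0.00105). Cyp4f16, a fatty acid hydroxylase, also dropped under the minimum on every tolerant array, by at least 2.19-fold (adjusted p = 0.0134, and 0.0529 without tolerant replicate 3). Its unstimulated arrays, at 5.68, 5.15 and 4.57, all lay above the tolerant arrays, at 3.99, 3.87 and 3.67. Cyp20a1, an orphan P450, differed by -1.07 log2 (adjusted p = 0.116, and 9.36e-04 with the block), but its other probe sets gave -0.39 and -0.23.

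Cyp3a13, of the CYP3A drug-metabolising subfamily, went the other way. It read log2 3.19, 3.19 and 3.01 unstimulated, 3.14, 3.20 and 3.15 at 6 h and 4.0, 5.05 and 4.53 in tolerant cells. The tolerant mean lay at least 1.44-fold higher than unstimulated, with 1.40 log2 between the measured means (adjusted p = 0.0136 by limma without the level minimum). With all values below log2 4 set to 4 the call was lost (0.53 log2, adjusted p = 0.137).

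Akr1 genes, which reduce aldehydes, ketones and steroids, gave 1 lower call of 7 tested, or 2 lower and 1 higher with the block. Akr1b10, an aldose reductase-like enzyme, read log2 7.89, 7.34 and 7.10 unstimulated and 6.67, 6.41 and 6.26 in tolerant cells, which did not overlap. It fell 1.99-fold (adjusted p = 0.0125, and 0.0531 without tolerant replicate 3), although on the probe set of largest variance the difference was -0.11 (adjusted p = 0.848). That probe set was 1.37 log2 higher at 6 h than unstimulated, where the one used differed by -0.28, and the last Akr1b10 probe set lay below the minimum on every array. Akr1c12, from a cluster of hydroxysteroid dehydrogenases, read 9.03, 9.72 and 9.58 unstimulated and 10.02, 10.35 and 10.41 in tolerant cells, a difference of 0.82 (adjusted p = 0.135, and 0.0133 with the block).

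Among the conjugating enzymes, cytosolic glutathione S-transferases gave 3 lower calls and none higher of 10 tested. Gsta4, which conjugates the lipid peroxidation product 4-hydroxynonenal, read log2 9.64, 10.26 and 10.23 unstimulated, 9.14, 9.80 and 9.94 at 6 h and 8.46, 9.06 and 8.91 in tolerant cells. It fell 2.35-fold with no overlap (adjusted p = 0.0119, and 0.0503 without unstimulated replicate 2). Gsta3, an alpha-class enzyme that also acts in steroid isomerisation, read 7.12, 7.71 and 7.31 unstimulated and 6.10, 6.73 and 6.31 in tolerant cells, a 2-fold fall (adjusted p = 0.0154). That call was lost without unstimulated replicate 2 (adjusted p = 0.0646) or tolerant replicate 3 (adjusted p = 0.0568). Gstt2 fell 1.62-fold (adjusted p = 0.0109) from 8.60, 8.87 and 8.88 to 8.03, 8.16 and 8.08.

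No mu-class gene passed in this comparison without or with the block. Gstm1 differed by -0.33, Gstm2 by 0.05, Gstm3 by -0.51 and Gstm5 by 0.41 log2. Gstp1, the pi-class transferase and the cytosolic member with the highest mean intensity, read log2 13.95, 13.71 and 13.69 unstimulated and 14.08, 13.71 and 13.78 in tolerant cells. These overlapped, at a difference of 0.07 (adjusted p = 0.794). Mu and alpha genes have close paralogs, and the probe sets used for Gstm1, Gstm3 and Gsto1 are of a type that can match more than 1 transcript. The same holds for the probe sets of Adhfe1, Aldh18a1 and Cyp2c23.

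The microsomal glutathione S-transferases, membrane proteins that act on lipid hydroperoxides and leukotrienes, were lower in 2 of 3 cases and in 3 of 3 with the block. Of all genes 12.2% were lower, and 25.9% with the block, and 3 genes are too few to read a fall of the family. Mgst1 read log2 9.60, 9.86 and 9.74 unstimulated, 9.48, 9.98 and 10.10 at 6 h and 8.16, 8.83 and 8.84 in tolerant cells. The unstimulated and 6 h arrays intermixed and all tolerant arrays lay below both, with a fall of 2.18-fold from unstimulated (adjusted p = 0.00968). Another Mgst1 probe set lay below the minimum on every array. Mgst2 fell 1.66-fold (adjusted p = 0.0272), a call lost without any array of these groups but unstimulated replicate 1 (adjusted p = 0.055 to 0.099). Mgst3 differed by -0.58 (adjusted p = 0.244, and 0.0162 with the block).

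Sulfotransferases gave 2 higher calls and 1 lower call of 5 tested. Sult2b1, which sulfates cholesterol and hydroxysteroids, read log2 4.33, 3.45 and 3.44 unstimulated, 3.68, 3.07 and 3.21 at 6 h and 5.76, 4.89 and 4.57 in tolerant cells. All tolerant arrays were above all others, 2.52-fold over unstimulated as measured, with 2 of 3 unstimulated arrays below the minimum. Without the level minimum Sult2b1 did not pass (adjusted p = 0.0807), and with it the call was lost without unstimulated replicate 2 or 3 or tolerant replicate 1 or 2 (adjusted p = 0.0566 to 0.0881). Sult1a1, the phenol sulfotransferase, read 3.34, 3.39 and 3.39 unstimulated and 4.06, 4.64 and 5.22 in tolerant cells. The tolerant mean lay at least 1.56-fold higher (adjusted p = 0.0313 by limma without the level minimum). That call was lost when values below log2 4 were set to 4 (0.64 log2, adjusted p = 0.101).

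Sult1c2, by contrast, fell 2.39-fold in tolerant cells (adjusted p = 0.0337). It read log2 10.26, 10.71 and 10.68 unstimulated, 9.41, 10.44 and 10.67 at 6 h and 8.69, 9.54 and 9.64 in tolerant cells, which lay below every unstimulated array. This call too was lost without any array of these groups but unstimulated replicate 1 (adjusted p = 0.0514 to 0.105). Ugt2b5 was the only glucuronosyltransferase tested, and at 0.15 log2 it did not pass (adjusted p = 0.738). Probe sets of the Ugt1a locus carry several symbols and were not analysed here.

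**Figure D3:**
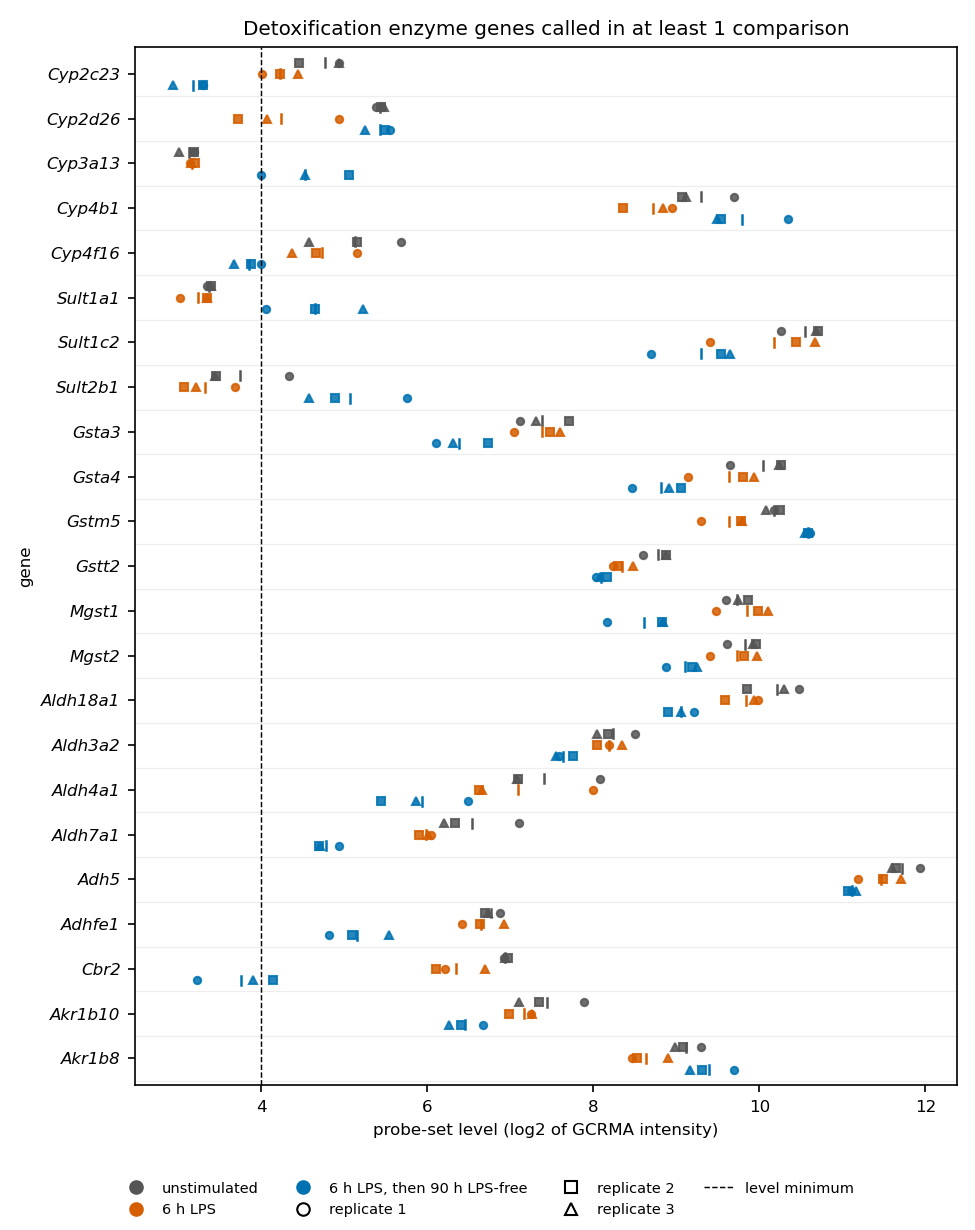
Log2 probe-set level (horizontal axis) on each of the 9 arrays for the 23 members that passed in at least 1 comparison without the block; colours mark groups, symbols replicate numbers, short bars group means and the dashed line the level minimum of 4. Cbr2 tolerant arrays lie between 3.22 and 4.14 against 6.92 to 6.97 unstimulated, and Cyp3a13 and Sult1a1 lie at or above the minimum on tolerant arrays alone.

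The third comparison set tolerant cells against 6 h of LPS. It shares the tolerant arrays with the comparison above and the LPS arrays with the first, so its values are given beside theirs and are no separate evidence. In all, 14 members passed, 25.5% of those tested against 13.1% of all genes. Lower were 7 (12.7%, against 6.02%) and higher were 7 (12.7%, against 7.1%). Medians were -0.08 log2 in the members and 0.01 in all genes. With the block 28 passed (50.9%, against 31.7%), 10 higher and 18 lower (18.2% and 32.7%, against 16% and 15.7%). Among the calls without it, 5 were lower and 5 higher by at least 2-fold as measured (9.09% each, against 3.28% and 4.44% of all genes). The 5 higher include Sult2b1, Sult1a1 and Cyp3a13, which met the level minimum only with their tolerant arrays, so nothing is read from that count. For Sult1a1, for Cyp3a13 and for Cyp2c23, one of the 5 lower, only bounds smaller than 2-fold can be given. Groups did not overlap in 16 lower and 9 higher members (29.1% and 16.4%, against 15.4% and 15.9%). The count without the block fell to 9 without tolerant replicate 1 and to 9 without tolerant replicate 3, again without shares of all genes beside it.

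The 7 lower genes were Cbr2, Adhfe1, Mgst1, Aldh7a1, Cyp2c23, Gsta3 and Aldh18a1, all of which also passed as lower against unstimulated cells. Cbr2 was 5.99-fold lower than at 6 h as measured (-2.58 ± 0.26 SE, adjusted p = 4.03e-04), and -2.29 log2 lower with values below log2 4 set to 4 (adjusted p = 1.61e-04). Adhfe1 was 2.83-fold lower (adjusted p = 0.00271), and the other Adhfe1 probe set above the minimum differed by -0.58 log2. Mgst1 was 2.36-fold lower (adjusted p = 0.0105), and Aldh7a1 2.31-fold lower (adjusted p = 0.0109). These 4 calls held without any single array.

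Cyp2c23 was at least 1.17-fold lower than at 6 h (adjusted p = 0.011). With values below log2 4 set to 4 its difference was -0.23 (adjusted p = 0.499). Gsta3 was 2-fold lower (adjusted p = 0.026), a call lost without 6 h replicate 2 or 3 or tolerant replicate 1 or 3 (adjusted p = 0.0794 to 0.0896). Aldh18a1 was 1.71-fold lower (adjusted p = 0.0381), a call lost without 6 of the 9 arrays in turn: unstimulated replicate 3, 6 h replicates 1 and 3, and each tolerant array (adjusted p = 0.0594 to 0.14).

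Of the 7 higher genes, Sult2b1, Sult1a1 and Cyp3a13 were also higher than in unstimulated cells. All 3 met the level minimum only with their tolerant arrays, which fixes their direction in the count of 7. Without that minimum Sult2b1 lay at least 2.11-fold above 6 h (adjusted p = 0.0493), Sult1a1 at least 1.56-fold (adjusted p = 0.0339) and Cyp3a13 at least 1.44-fold (adjusted p = 0.0222). With values below log2 4 set to 4 the calls of Sult1a1 (adjusted p = 0.15) and Cyp3a13 (adjusted p = 0.199) were lost.

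The other 4, Gstm5, Cyp4b1, Cyp2d26 and Akr1b8, were higher than at 6 h and did not pass against unstimulated cells without the block. Gstm5, a mu-class transferase, read log2 10.18, 10.25 and 10.08 unstimulated, 9.30, 9.78 and 9.79 at 6 h and 10.61, 10.58 and 10.55 in tolerant cells. LPS arrays were lowest and tolerant arrays highest, with no overlap among the 3 groups. Tolerant cells were 1.93-fold above 6 h (adjusted p = 0.00742).

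Cyp4b1, a P450 acting on fatty acids and some protoxins, read log2 9.69, 9.07 and 9.11 unstimulated, 8.95, 8.36 and 8.84 at 6 h and 10.34, 9.54 and 9.49 in tolerant cells. Unstimulated and tolerant arrays overlapped, and tolerant cells were 2.1-fold above 6 h (adjusted p = 0.0402). The call was lost without unstimulated or 6 h replicates 2 or 3, or any tolerant array (adjusted p = 0.0589 to 0.123). Cyp2d26 was 2.28-fold higher than at 6 h (adjusted p = 0.0238), and its tolerant arrays, at 5.55, 5.49 and 5.25, intermixed with the unstimulated ones. That call was lost without 6 h replicate 2 or 3 or any tolerant array (adjusted p = 0.0562 to 0.0817).

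Akr1b8, an aldose reductase-like enzyme, read log2 9.29, 9.08 and 8.98 unstimulated, 8.47, 8.52 and 8.90 at 6 h and 9.69, 9.31 and 9.16 in tolerant cells. All LPS arrays lay below the others, and tolerant cells were 1.69-fold above 6 h (adjusted p = 0.0362). The call was lost without any array but unstimulated replicate 1 and 6 h replicate 3 (adjusted p = 0.0538 to 0.113), and also from replicates 2 and 3 alone. From those replicates 24 members passed against 6 h, 7 higher and 17 lower (22.5% of all genes passed, 11.2% higher and 11.4% lower). Against unstimulated cells 30 passed, 7 higher and 23 lower (38.3% of all genes, 18.5% higher and 19.7% lower).

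Members that adjoin each other on a chromosome, with at most 2 coding genes between, formed 7 groups holding 17 of the 55 genes in the RefSeq gene order. Akr1b8 and Akr1b10 are direct neighbours, yet against 6 h their differences were 0.75 and -0.72 log2, and against unstimulated 0.27 and -0.99. Cyp2d40 and Cyp2d26, also direct neighbours, differed by -0.02 and -1.19 at 6 h. In the Gstm cluster Gstm5, Gstm3, Gstm2 and Gstm1 were all lower on average at 6 h, by -0.54, -0.92, -0.35 and -0.39. The same held for all 10 tested cytosolic glutathione S-transferases (-0.92 to -0.01), so this direction was not particular to the cluster. Against 6 h the tolerant values of the 4 Gstm genes, in the same order, were 0.95, 0.41, 0.40 and 0.06. Aldh9a1 and Mgst3 adjoin, with -0.62 and -0.57 at 6 h and -0.66 and -0.58 in tolerant against unstimulated cells. On the second Aldh9a1 probe set these differences were -0.21 and -0.67, and that of Mgst3 lay below the minimum on every array. The remaining groups are not described here.

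In 12 members no comparison passed without or with the block, among them Akr1a1, Gstp1, Sult1d1 and Ugt2b5. Akr1a1, a general aldehyde reductase, read log2 14.02, 13.99 and 14.03 unstimulated, 13.55, 13.86 and 13.91 at 6 h and 13.73, 13.71 and 13.71 in tolerant cells. Tolerant arrays all lay below unstimulated ones by a small margin (-0.30, adjusted p = 0.174). The other Akr1a1 probe sets, above the minimum on all 9 arrays, differed by more, at -0.55, -0.47 and -0.52 log2. The level minimum separated Cyp3a13, Sult1a1 and Cyp2d40, whose array of rank 3 read log2 4.0, 4.06 and 4.41, from Sult6b1, Gstm7 and Cyp3a44, at 3.85, 3.60 and 3.47. Of the 105 members not tested, 103 lay below log2 4 on all 9 arrays.

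Genes around these enzymes were described in 5 lists: transcriptional regulators, P450 partners with epoxide hydrolases, cofactor enzymes, other detoxification enzymes, and transporters. Cofactor enzymes here are genes that supply NADPH, glutathione, UDP-glucuronic acid or activated sulfate, with the transporter Slc35b2 counted among them. None of the 41 tested genes of these lists passed at 6 h (limma; 0.0636% of all genes did). With the block Tiparp and Ugp2 were higher and Hnf4a, Ephx1, Gss and Slc35b2 lower at 6 h (11.6% and 12.5% of all genes). Against unstimulated cells 1 of 9 regulators was higher and 3 lower, 2 of 7 P450 partners lower, 2 of 10 cofactor enzymes lower, 2 of 6 other enzymes lower and 1 of 9 transporters higher, in all 2 higher and 9 lower (14% and 12.2% of all genes). With the block 8 were higher and 17 lower (22.7% and 25.9% of all genes). Against 6 h the counts were 1 regulator higher and 2 lower, 1 partner higher and 3 lower, no cofactor enzyme, 2 other enzymes lower, and 1 transporter higher and 1 lower, in all 3 higher and 8 lower (7.1% and 6.02% of all genes). With the block these were 4 and 15 (16% and 15.7%).

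Among regulators, the xenobiotic receptor genes Nr1i2 and Nr1i3 lay below the level minimum on every array. Ahr, the aryl hydrocarbon receptor, read log2 7.74, 7.39 and 7.95 unstimulated, 7.61, 7.98 and 7.79 at 6 h and 7.94, 8.03 and 8.14 in tolerant cells and did not pass. Tiparp, a target and repressor of that receptor, rose 2.72-fold in tolerant over unstimulated cells (adjusted p = 0.00319), from 6.44, 6.56 and 7.07 to 8.14, 8.16 and 8.10. Hnf4a, a nuclear receptor of intestinal and liver differentiation, fell 3.49-fold (adjusted p = 0.00162), from 10.11, 9.29 and 9.46 to 8.19, 7.73 and 7.53. Both calls were lost with the probe set of largest variance (1.18 log2, adjusted p = 0.254, and -1.48 log2, adjusted p = 0.205).

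The bile acid receptor Nr1h4 fell 1.94-fold (adjusted p = 0.0163), a call lost without unstimulated replicate 2 or 3 or tolerant replicate 2 (adjusted p = 0.0536 to 0.0569). Keap1, the repressor of NRF2, fell 1.52-fold (adjusted p = 0.0408), and each array of both groups, and 6 h replicate 3, was needed for the call (adjusted p = 0.0514 to 0.135 without it). The Keap1 call was also lost with its probe sets averaged (adjusted p = 0.453). Against 6 h, Hnf4a and Nr1h4 were lower and Ppara, a fatty acid-sensing receptor, was 2.15-fold higher (adjusted p = 0.0237). That Ppara call was lost without 6 h replicate 2 or 3 or tolerant replicate 1 or 3 (adjusted p = 0.0511 to 0.0775). The call of Hnf4a against 6 h was lost without 6 h replicate 1 or 3 or tolerant replicate 2 or 3 (adjusted p = 0.0628 to 0.0977), and that of Nr1h4 without unstimulated replicate 2, 6 h replicate 2 or 3 or any tolerant array (adjusted p = 0.0574 to 0.101).

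Of the P450 partners, Hmox1, the heme-degrading enzyme, fell 4.9-fold from unstimulated to tolerant cells (adjusted p = 0.00578), and Cyb5a, cytochrome b5, fell 2.21-fold (adjusted p = 0.0053). Hmox1 read log2 7.56, 7.41 and 6.33 unstimulated, 7.92, 7.22 and 6.68 at 6 h and 5.39, 4.76 and 4.28 in tolerant cells. Its tolerant arrays lay below all others, and its call held without any single array. Ephx1, microsomal epoxide hydrolase, was 1.91-fold higher in tolerant cells than at 6 h (adjusted p = 0.0219), a call lost without 6 h replicate 2 or 3 or tolerant replicate 1 or 3 (adjusted p = 0.0511 to 0.0745).

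The cofactor enzymes Pgd, of the pentose phosphate pathway, and Gss, glutathione synthetase, fell 1.84-fold (adjusted p = 0.00602) and 1.8-fold (adjusted p = 0.0177). The Gss call was lost without unstimulated replicate 1 or tolerant replicate 2 or 3 (adjusted p = 0.0549 to 0.0768), and that of Pgd with the probe set of largest variance (-1.03, adjusted p = 0.0984). With the block the cofactor list had 6 lower and 2 higher genes. Among other enzymes, the quinone reductase Nqo2 fell 2.95-fold (adjusted p = 0.00166), from log2 7.02, 7.26 and 7.24 to 5.53, 5.80 and 5.50. The acetyltransferase Nat2 fell 1.46-fold (adjusted p = 0.0428), and each array of both groups, and 6 h replicate 3, was needed for the call (adjusted p = 0.0515 to 0.129 without it).

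The organic anion transporter Slco4a1 had the largest higher value of these lists. It read log2 8.77, 9.69 and 9.44 unstimulated, 8.49, 9.22 and 9.77 at 6 h and 11.55, 11.83 and 11.85 in tolerant cells. Tolerant arrays lay above all others, 5.45-fold over unstimulated (adjusted p = 0.00154) and 6-fold over 6 h (adjusted p = 0.00169), on a probe set of a type that can match more than 1 transcript. Abcc4, an efflux pump, was 1.55-fold lower in tolerant cells than at 6 h (adjusted p = 0.0448), a call lost without any array but 6 h replicate 1 (adjusted p = 0.0527 to 0.138).

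**Figure D4:**
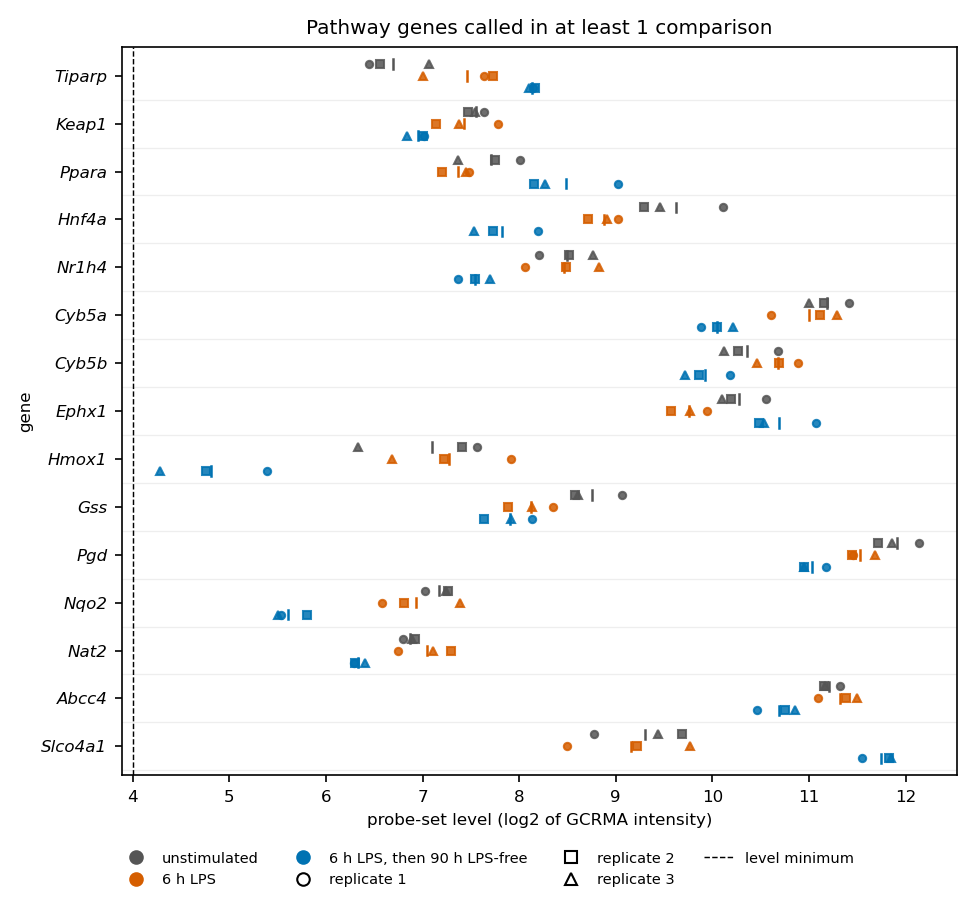
Log2 probe-set level (horizontal axis) on each array for the listed regulators, P450 partners, cofactor enzymes, other enzymes and transporters that passed in at least 1 comparison without the block; colours mark groups, symbols replicate numbers and short bars group means. Slco4a1 lies at 11.55 to 11.85 on tolerant arrays against at most 9.77 on the others, and Hmox1 at 4.28 to 5.39 against at least 6.33.

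Marker levels beside these results moved too. Epcam read log2 5.31, 6.07 and 5.53 on tolerant arrays and 2.92 to 3.24 on all others. Summed intensities of the 7 brush border genes were 398 to 469 unstimulated, 274 to 435 at 6 h and 493 to 643 in tolerant cells (linear scale). That sum includes Alpi, Lct, Fabp2 and Apoa4, which were below the minimum on every array. It also joins unlike moves. In tolerant over unstimulated cells Cdh17 rose 4.13-fold (adjusted p = 0.0038 by limma), and Fabp1 did not pass (0.63 log2, adjusted p = 0.234). Vil1 differed by -0.18 log2 (adjusted p = 0.515), with all tolerant arrays below all unstimulated ones. Summed leukocyte intensities were 1170 to 2440, 730 to 2100 and 1130 to 1460, with Ptprc, Itgam and 4 others of the 8 markers below the minimum on every array. The sum joins opposite moves of the other 2. Cd68, a lysosomal glycoprotein gene, rose 17.8-fold in tolerant over unstimulated cells (adjusted p = 5.83e-06), from log2 5.52, 5.65 and 5.38 to 9.73, 9.67 and 9.61. Csf1r fell 3.85-fold (adjusted p = 0.0232), from 10.1, 11.06 and 11.2 to 7.97, 9.25 and 9.3. The part of these markers in the enzyme results was not tested.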

How the data were processed

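RNA of 9 cultures was measured on Affymetrix mouse arrays with 45101 probe sets. The deposited values are GCRMA-normalised intensities on a linear scale, made by the authors per the submitters' processing notes, with no version stated there. GCRMA models background from probe sequence, so low values bunch near its floor (59.1% to 61% of probe sets lay below log2 4). Values were taken as log2 without a pseudocount. Of the probe sets, 34945 carry 1 gene symbol; per gene the one with the highest mean was kept, and a gene was tested if 3 or more arrays reached log2 4. Groups were compared in 1 linear model over all 9 arrays with limma 3.58.1 (R 4.3.3), moderated by eBayes, with Benjamini-Hochberg adjustment over all 9431 genes and a threshold of 0.05. The test was checked on simulated data.

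Most named genes come from a list made by rule. It held, per family and comparison, up to 5 members that passed without or with the replicate block, by size. Added to it were the member of highest mean per family, the 3 nearest the level minimum on either side, and up to 4 genes per pathway list. Not every gene of that list is described in the text (Aldh1a7 and Rxra are examples), and some outside it are (such as Ahr and Keap1). The members and lists were chosen with earlier results of these data known. If a group had no array at log2 4, folds against it are lower bounds, computed from log2 4.

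The labels number replicates 1 to 3 in each group. Deviations of same-numbered arrays correlated at 0.157 to 0.677 for replicates 2 and 3 and 0.737 to 0.844 for replicate 1. Each lay over the pairing threshold of 0.1, and the number was used as a blocking term in an alternative fit. All p-values and standard errors given without mention of the block come from fits that ignore the number. Replicates 2 and 3 did not separate from each other, at 0.214 to 0.731 between unlike numbers, no lower than between like ones. Passing the threshold therefore cannot show that replicates 2 and 3 pair, and only replicate 1 stood apart. No label says what the number stands for.

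Alternatives were no filter, a minimum of log2 5, the mean of probe sets, the probe set of largest variance, quantile normalisation, a floor at log2 4, trend and robust eBayes, only the 2 groups compared, the replicate block, replicates 2 and 3 alone, and leaving out each array. Promoter sequences are RefSeq's on GRCm38.p6, searched over 250 bases with Python 3.11.15. The number of arrays limits the precision.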

Additional observations from a re-analysis of the deposited data

How the results depend on the processing

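Without the replicate block 0, 19 and 14 members passed at 6 h, in tolerant against unstimulated cells and in tolerant cells against 6 h. With the replicate block 13, 31 and 28 passed; the block kept all 19 and all 14 earlier calls. From replicates 2 and 3 alone 30 passed against unstimulated cells, 18 of the 19 among them (Aldh3a2 was lost), and 24 against 6 h, 13 of the 14 among them (Akr1b8 was lost). Testing all 160 members without a filter, among 18193 genes, left 9 against 6 h. Leaving out 1 array gave 0 to 1, 11 to 21 and 9 to 16 members. Shares of all genes are not given for these counts or for that without a filter. A loss particular to members therefore cannot be told from a general one. The other alternatives listed under processing kept the counts within 1.5 times. Cyb5b was the 1 listed gene that changed sign, from lower to 0.16 (mean of probe sets) and 0.56 (largest variance) against unstimulated cells, and to 0.00 and 0.68 against 6 h; the cause was not tested. No member changed sign in a comparison in which it passed without or with the block. Values near the level minimum limit Cbr2, Cyp2c23, Cyp4f16, Cyp3a13, Sult1a1 and Sult2b1, whose low groups give only bounds or lie partly below it. With values below log2 4 set to 4, Cyp3a13 and Sult1a1 lost both of their calls. Without a filter Aldh4a1, Sult1c2 and Sult2b1 lost their calls against unstimulated cells (adjusted p = 0.0807 to 0.125 by limma), and Akr1b8, Aldh18a1, Cyp2d26, Cyp4b1 and Gsta3 theirs against 6 h (adjusted p = 0.0607 to 0.11 by limma), with more genes tested. With only the 2 groups compared in the fit, Akr1b8, Aldh18a1, Cyp2d26 and Cyp4b1 lost theirs against 6 h (adjusted p = 0.0501 to 0.0787 by limma), with fewer arrays. Averaged probe sets ended the calls of Adh5 and Akr1b10 against unstimulated cells and of Aldh18a1 and Gsta3 against 6 h.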
